A study of Drosophila melanogaster with 18 samples.

Results

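Ovary transcripts of the yw strain of Drosophila melanogaster are compared here between 2 temperatures, in 3 ovary samples from flies at 25 °C and 3 from flies at 20 °C. These 6 samples were taken from a series of 18 by the genotype and temperature in their titles. The yw strain carries mutations in the body colour gene yellow and the eye colour gene white, and it is the control strain of a study of Marcal1, the fly counterpart of human SMARCAL1, and of RNA polymerase II mutants. Per the labels the flies were reared in incubators at these temperatures, and the labels call flies at 25 °C heat stressed and flies at 20 °C untreated. RNA came from ovaries of females, and the design states that the 3 samples of each group were biologically independent. The sources used here do not give the age of the flies, the time spent at each temperature or the number of ovaries per sample. Affymetrix Drosophila Genome 2.0 arrays, on which groups of short oligonucleotides form probe sets, were hybridised with 1 sample each. A level is the deposited log2 intensity of a probe set after RMA (robust multi-array average), and a change is the mean log2 level at 25 °C minus that at 20 °C, so that 1 log2 unit is a 2-fold ratio of normalized intensity.

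Flies do not hold their body temperature, so the rate of egg production and the turnover of RNA and protein follow the temperature around them. In a fly ovary, germline stem cells give rise to egg chambers in which nurse cells supply the oocyte with RNA and protein, while the surrounding follicle cells secrete yolk and, late in their development, the vitelline membrane and chorion of the eggshell. Heat shock factor switches on chaperone genes when proteins unfold, but 25 °C is a common rearing temperature for flies, well below a classical heat shock. In whole ovaries, fewer cells of a type and less RNA per cell cannot be told apart.

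The 6 arrays resembled each other closely. Their median levels lay between 4.14 and 4.20, and levels correlated across probe sets with a Pearson r of 0.986 to 0.997 within a temperature and 0.986 to 0.994 between temperatures. RNA integrity was read from the GAPDH controls as the level of the 3′ set above that of the 5′ set, which was 1.09, 1.05 and 1.07 at 25 °C, against 1.12, 1.21 and 1.14 at 20 °C. All 3 arrays at 25 °C were thus slightly below all 3 at 20 °C, and the part of this difference in the results was not tested. The same measure for actin overlapped, with 1.13, 0.97 and 0.75 at 25 °C, against 1.04, 0.98 and 0.90 at 20 °C. The array names run consecutively by temperature, so array order and temperature cannot be told apart. Ovary transcripts were abundant: the maternal germline list averaged 9.78 to 9.84 on the arrays at 25 °C and 9.76 to 9.90 at 20 °C. Markers of gut, testis and neurons averaged 3.30 to 3.98 at 25 °C and 3.24 to 3.94 at 20 °C, below the median level of every array. The Marcal1 probe set stood at 7.83, 8.24 and 8.27 at 25 °C and at 8.48, 7.53 and 7.81 at 20 °C (change 0.17 ± 0.22 SE, adjusted p = 0.926), so the groups overlapped. The yellow gene, y, read 3.48, 3.03 and 3.22 at 25 °C and 3.28, 3.39 and 3.05 at 20 °C, under the median of each array.

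Both temperatures held arrays that stood apart. The eggshell list of 25 chorion and vitelline membrane genes averaged 9.50, 9.29 and 10.16 at 25 °C, against 8.74, 11.43 and 11.32 at 20 °C, so that replicate 1 at 20 °C was the lowest of the 6 arrays and the other two of its group were the highest. The muscle list of 21 genes averaged 7.34, 5.35 and 5.63 at 25 °C, against 5.77, 6.14 and 6.10 at 20 °C. Replicate 1 at 25 °C was the highest of all 18 arrays on it. Of these muscle genes, 3 had both group means under the median of every array, as had 4 of the 21 hemocyte genes. The hemocyte list of 21 genes was likewise highest on that array among the 6, with 6.53, 5.52 and 5.72 at 25 °C, against 5.95, 6.11 and 6.04 at 20 °C. Calls and list medians that moved much when these 2 arrays were left out are given below with and without them. The arrays were left out for their eggshell and muscle levels, so every call and median given without them depends on that choice.

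**Figure D1:**
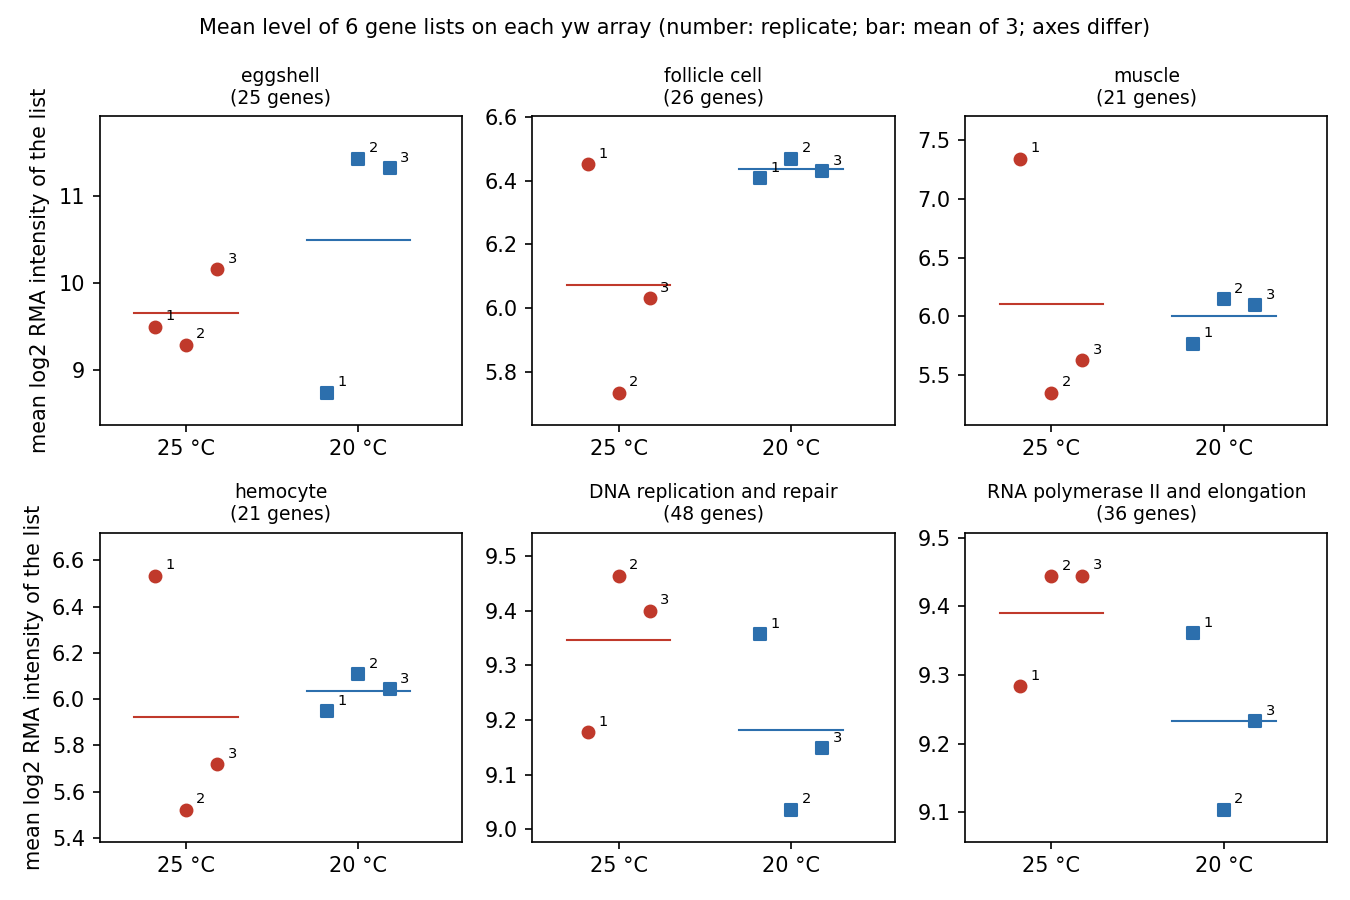
Mean log2 RMA intensity of 6 gene lists on each yw array (vertical axes, which differ between panels), with 25 °C as red circles left of 20 °C as blue squares; the digit is the replicate number and the bar the mean of 3 arrays. Replicate 1 at 20 °C lies at 8.74 on the eggshell list, against 11.43 and 11.32, and replicate 1 at 25 °C lies at 7.34 on the muscle list, against 5.35 and 5.63.

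A small set of transcripts changed with temperature. Of 18769 probe sets tested, 48 passed an adjusted p of 0.05, which is 0.256% of those tested, with 26 higher at 25 °C (0.139%) and 22 lower (0.117%). At an unadjusted p under 0.05 there were 1391 probe sets, where 938 would be expected by chance. The called probe sets stood for 45 genes, 25 higher (0.209% of 11983 genes) and 20 lower (0.167%), and 3 further probe sets had no gene name here. Among the called genes 22 changed more than 2-fold, 12 up and 10 down, and 3 changed more than 4-fold. All 48 called probe sets had 3 values at 25 °C entirely above or entirely below the 3 at 20 °C, as had 12.1% of all genes. The 48 were called on these same arrays, so their separation is no further support for the calls. Over all genes the median change was 0.02, and 56.5% of genes had a positive change. When replicate 1 of both temperatures was left out, 633 probe sets were called (3.37%), 391 higher and 242 lower, and they included 46 of the 48 with the same direction. The count was 23 to 27 when replicate 2 or 3 of either temperature was left out, 2 when the 6 yw arrays were fitted alone and 0 by an equal-variance test of each probe set (1094 at an unadjusted p under 0.05). Of the 45 genes, 17 stayed called in every fit that left out 1 yw array. Over 16 alternatives Cul6, Roc1a, MCTS1, Taf7, GstD9, aub and Rab27 were called in 14, DnaJ-1, Mical and dpr6 in 8, bab1 and jtb in 7, Kap-alpha3 in 6, and Archease, ETH and rasp in 5.

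**Figure D2:**
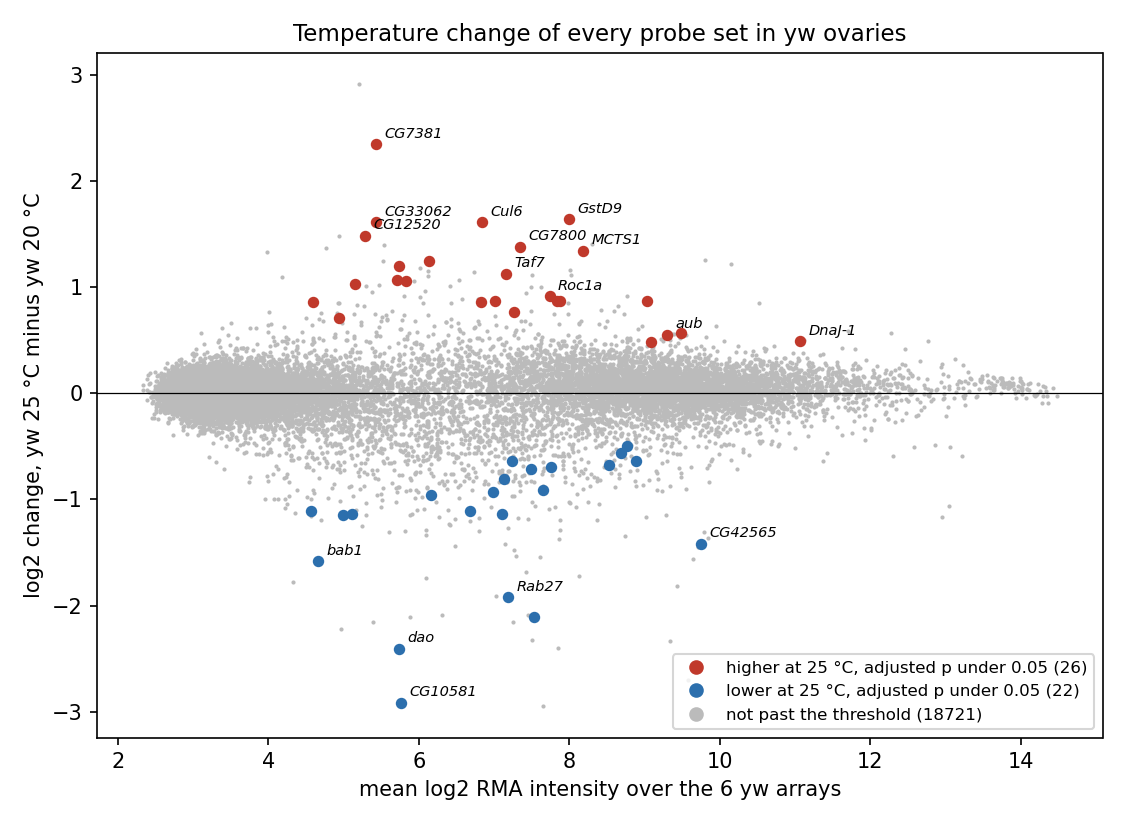
Log2 change between 25 °C and 20 °C (vertical axis) against the mean log2 RMA intensity of the 6 yw arrays (horizontal axis), 1 point per probe set, with called probe sets coloured and the largest changes named. CG7381 (2.35) is the highest and CG10581 (-2.92) the lowest of the called genes, and the other called genes spread over both low and high levels.

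The steepest fall was that of CG10581. It read 4.33, 4.44 and 4.16 at 25 °C, against 7.45, 7.10 and 7.13 at 20 °C. The level at 25 °C was near the median of the arrays, and the fall was 7.55-fold (log2 change -2.92 ± 0.14 SE, adjusted p = 9.63e-09). The steepest rise was that of CG7381, which read 6.37, 6.62 and 6.84 at 25 °C, against 4.12, 4.06 and 4.58 at 20 °C. That is a 5.11-fold rise (2.35 ± 0.14, adjusted p = 9.41e-08) of a transcript that was near the array median at 20 °C. These 2 genes were the most stable calls: CG10581 stayed between -2.98 and -2.80 and CG7381 between 2.22 and 2.52 over the alternatives tried, and each was called in 15 of 16.

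**Figure D3:**
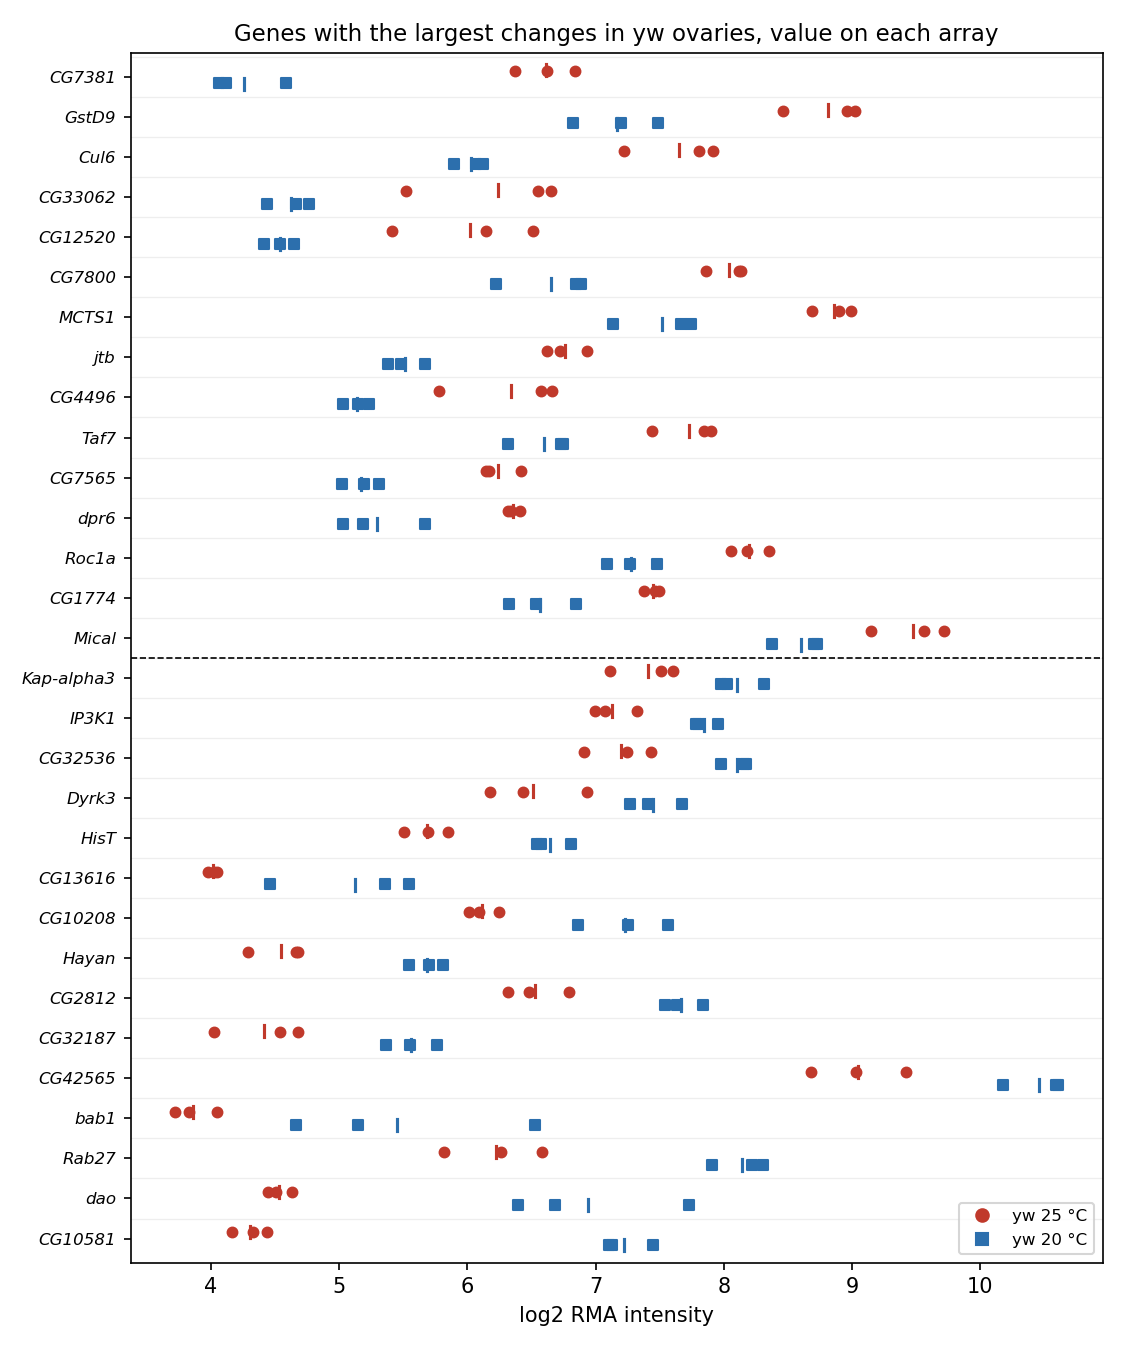
Log2 RMA intensity (horizontal axis) on each yw array for the 15 genes with the largest called rises (above the dashed line) and the 15 with the largest called falls (below it), with red circles for 25 °C above blue squares for 20 °C and a bar for each mean of 3. The 2 temperatures do not overlap for any of these 30 genes, as the choice of genes required. At 20 °C bab1 and dao have a wide spread.

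Members of gene lists are described next by their roles. Those named without a call, beyond the 2 with the smallest p of a list, and those named for calls without replicate 1 were chosen after their values were seen. Genes of protein turnover were among the rises. Cul6, a member of the cullin family whose proteins are scaffolds of ubiquitin ligases, read 7.23, 7.92 and 7.81 at 25 °C, against 6.13, 5.90 and 6.07 at 20 °C, a 3.07-fold rise (1.62 ± 0.21 SE, adjusted p = 0.00249). Roc1a, a RING protein that docks the ubiquitin-conjugating enzyme onto cullins, read 8.06, 8.18 and 8.35 at 25 °C, against 7.09, 7.27 and 7.48 at 20 °C. It rose 1.89-fold (0.92 ± 0.13, adjusted p = 0.00532). On the list of cullin ligase genes, 2 of 23 members were called higher and 0 lower, against 0.209% and 0.167% of all genes. Of the members 19 had a positive change, as had 56.5% of all genes, and the median change was 0.18, against 0.02 over all genes. The list was chosen with earlier results of these data known. Cul3 (0.31), SkpA (0.19) and Roc2 (0.30) did not pass, although their values at 25 °C all lay above those at 20 °C. With the 2 called genes, 5 of the 23 members were so placed, against 6.64% of all genes. The COP9 subunit CSN1b (0.24) was called when replicate 1 of both temperatures was left out (0.57 ± 0.14, adjusted p = 0.0398). The proteasome itself had no call among 28 members, of which 24 were positive, with a median of 0.11 (28 positive and 0.31 without those 2 arrays, still with no call).

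The translation factor MCTS1, which helps ribosomes to restart after a short upstream reading frame, read 8.69, 8.90 and 8.99 at 25 °C, against 7.74, 7.14 and 7.67 at 20 °C. It rose 2.54-fold (1.35 ± 0.19 SE, adjusted p = 0.00479) and was the 1 called member of 38 on the list of translation initiation and elongation factors, whose median change was 0.06. Of 86 cytosolic ribosomal protein genes on the list 33 were measured, and none of these was called (median change 0.08). None of 30 measured ribosome biogenesis genes was called either (median 0.05). With 0.376% of all genes called, the absence of calls in lists of this size is near that share. RpL27, with the smallest p of the ribosomal protein genes, averaged 13.40 ± 0.07 at 25 °C and 13.20 ± 0.12 at 20 °C (SD, n = 3 each), and did not pass (0.21 ± 0.09 SE, adjusted p = 0.584).

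In the transcription machinery, Taf7, a subunit of the general factor TFIID, read 7.44, 7.90 and 7.85 at 25 °C, against 6.75, 6.32 and 6.73 at 20 °C. It rose 2.19-fold (1.13 ± 0.15 SE, adjusted p = 0.00331). Taf7 was not on the list of RNA polymerase II and elongation genes, on which 0 of 36 members were called, although 30 were positive and the median change was 0.18. On that list 11 members had all values at 25 °C above all values at 20 °C and 0 the reverse, against 6.64% and 5.47% of all genes. Taf6, another TFIID subunit, had the smallest p among them, with 8.63, 8.70 and 8.74 at 25 °C, against 8.49, 7.98 and 8.21 at 20 °C (0.47 ± 0.12, adjusted p = 0.178). The list averaged 9.28, 9.44 and 9.44 at 25 °C and 9.36, 9.10 and 9.23 at 20 °C, so the arrays of the 2 temperatures overlapped through replicate 1 of each. Without those 2 arrays 4 members were called, all higher, namely MED1 (0.61), Taf6 (0.63), Nelf-E (0.51) and CycH (0.50), where 2.74% of all genes were called higher and 1.34% lower. These shares are the background of every count given below without those 2 arrays. Since the groups overlapped through those arrays, the 4 calls are no separate evidence of a rise.

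Of the chaperone genes measured, 1 passed. DnaJ-1, an Hsp40 co-chaperone that hands unfolded proteins to Hsp70, read 11.17, 11.38 and 11.40 at 25 °C, against 10.90, 10.80 and 10.78 at 20 °C. The rise was 1.40-fold (0.49 ± 0.09 SE, adjusted p = 0.0283), and DnaJ-1 was the 1 called gene of 27 measured on the list of heat shock proteins and chaperones. Of these 27 genes 19 were positive, the median change was 0.05, and the lowest value was -0.38. The list averaged 9.31, 9.29 and 9.33 at 25 °C, against 9.26, 9.16 and 9.24 at 20 °C, so its arrays separated by temperature over a narrow range. The exact permutation p of this separation was 0.1, the smallest that 3 against 3 arrays allow. The small heat shock proteins Hsp26 and Hsp27, which are abundant in the germline, averaged 13.28 and 12.62 at 25 °C, against 12.96 and 12.40 at 20 °C, and neither passed. They were called together with DnaJ-1 when replicate 1 of both temperatures was left out, with changes of 0.70 ± 0.14 and 0.53 ± 0.13 (adjusted p = 0.022 and 0.0465). The inducible Hsp68 averaged 5.82 at 25 °C and 5.38 at 20 °C, a difference of 0.44 that did not pass, and for the regulator Hsf the difference was 0.10. The list held 41 genes as written, and the 14 without a probe set named for 1 gene alone, among them Hsp83 and the Hsp70 copies, are not described. In the chaperonin and prefoldin list (14 genes, median 0.09) and the list for protein folding in the endoplasmic reticulum (18 genes, median -0.01) no member was called.

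GstD9 encodes a glutathione S-transferase of the delta class, an enzyme that conjugates glutathione to reactive compounds. The transcript read 8.46, 9.02 and 8.96 at 25 °C, against 7.48, 6.82 and 7.20 at 20 °C, a 3.13-fold rise (1.65 ± 0.21 SE, adjusted p = 0.00228). GstD9 was not on the list of oxidative stress and detoxification genes, of which 0 of 35 were called, with a median change of 0.03. The smallest p on that list were those of GstD3 and GstE1, which did not pass. GstD3 read 8.90, 9.20 and 9.18 at 25 °C, against 8.24, 8.20 and 8.60 at 20 °C (0.74 ± 0.16, adjusted p = 0.0876), and for GstE1 the difference was 0.85 ± 0.20 (adjusted p = 0.119). The measured genes next to GstD9 on the chromosome, GstD10 and GstD1, changed by 0.31 and 0.27 (adjusted p = 0.545 and 0.763). Glutathione S-transferases of a class are close in sequence, so the assignment of signal to 1 of them is uncertain. Without replicate 1 of both temperatures 5 list members were called, all higher, against 2.74% of all genes: GstD1 (0.57), GstD3 (0.79), GstE1 (1.00), Cyp6a23 (1.04) and Keap1 (0.55).

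In the germline, aub, which encodes a Piwi-family protein that cuts transposon RNA guided by piRNAs, read 9.60, 9.49 and 9.62 at 25 °C, against 9.02, 8.93 and 9.09 at 20 °C. The spread within each temperature was small, and the rise of 1.47-fold (0.55 ± 0.08 SE) passed with an adjusted p of 0.00532. No other of the 30 measured piRNA pathway genes was called, 18 were positive and the median change was 0.05. By value, the log2 change was 0.66 for zuc, which encodes a nuclease that makes piRNA ends, 0.53 for BoYb and -0.28 for piwi, which encodes the nuclear member of the family. For mino, a mitochondrial acyltransferase gene, it was -0.37 (10.34 at 25 °C, against 10.71 at 20 °C). Without replicate 1 of both temperatures 5 were called higher, namely aub (0.55), zuc (1.07), BoYb (0.85), Panx (0.72) and mael (0.47), and 1 lower, namely mino (-0.47), against 2.74% and 1.34% of all genes. Among 35 maternal germline genes aub was again the 1 call, and the median change was 0.06.

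Of 48 genes of DNA replication and repair none was called, 43 were positive and the median change was 0.16. In Marcal1del/del, the other genotype sampled at both temperatures, the median of the list was -0.01. Sld5, a subunit of the GINS complex of the replicative helicase, came closest, with 8.29, 8.54 and 8.55 at 25 °C, against 7.92, 7.66 and 7.85 at 20 °C (0.65 ± 0.13 SE, adjusted p = 0.0535). For the nucleotide excision repair nuclease mei-9 the difference was 0.48 ± 0.12 (adjusted p = 0.155). On the arrays the list averaged 9.18, 9.46 and 9.40 at 25 °C and 9.36, 9.04 and 9.15 at 20 °C, so the groups overlapped through replicate 1 of each. Without those 2 arrays 6 members were called, all higher, with changes from 0.58 (RfC38) to 0.79 (Sld5), against 2.74% of all genes. Leaving out the arrays through which the groups overlapped favours such calls, so they are no separate evidence of a rise.

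Of 26 follicle cell genes 1 was called, namely bab1, which encodes a BTB-domain transcription factor needed to build the somatic ovary. It read 4.05, 3.72 and 3.83 at 25 °C, against 6.53, 5.15 and 4.67 at 20 °C. Levels at 25 °C were under the median of every array and those at 20 °C were spread widely, with the highest on replicate 1, the array with the lowest eggshell level. The fall was 3.00-fold (-1.58 ± 0.31 SE, adjusted p = 0.0416), and without replicate 1 of both temperatures it was -1.14 (adjusted p = 0.0093). This SE is pooled over all 6 groups of the fit. In yw the SD was 0.17 at 25 °C and 0.97 at 20 °C. In Marcal1del/del, where bab1 was under the median of every array, the SD was 0.10 and 0.18, so the SE understates the spread in yw at 20 °C. On the follicle cell list 4 of 26 members were positive and the median change was -0.31 (-0.02 in Marcal1del/del), with array means of 6.45, 5.73 and 6.03 at 25 °C, against 6.41, 6.47 and 6.43 at 20 °C. Replicate 1 at 25 °C, the array with the highest muscle level, was level with the arrays at 20 °C, while replicates 2 and 3 were below them. Without replicate 1 of both temperatures the median was -0.58, and 3 members were called, all lower, namely bab1, mid (-1.47) and peb (-0.96). Leaving out the array at 25 °C that was level with those at 20 °C favours such calls, so mid and peb are no separate evidence of a fall.

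The eggshell list held wide differences but no call. Of its 25 genes 1 was positive, and the median change was -0.50, against 0.06 in Marcal1del/del. The vitelline membrane gene yellow-g read 7.58, 9.66 and 10.23 at 25 °C, against 9.85, 12.98 and 12.50 at 20 °C (-2.62 ± 0.84 SE, adjusted p = 0.359), and for yellow-g2 the difference was -2.70 ± 0.89 (adjusted p = 0.381). In both genes replicate 1 was the lowest array of each temperature, and the groups overlapped. For the major chorion genes Cp36 and Cp38 the differences were -1.16 and -1.07. The yolk protein genes Yp1 and Yp2, made by follicle cells and fat body, averaged 12.62 and 12.81 at 25 °C, against 13.11 and 13.31 at 20 °C, and did not pass. Without replicate 1 of both temperatures none of the 25 eggshell genes was positive, the median was -1.54, and ndl, which encodes a protease of the perivitelline space, was called (-2.56 ± 0.61, adjusted p = 0.0374). Since those arrays were left out for their eggshell and muscle levels, these eggshell values depend on that choice.

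**Figure D4:**
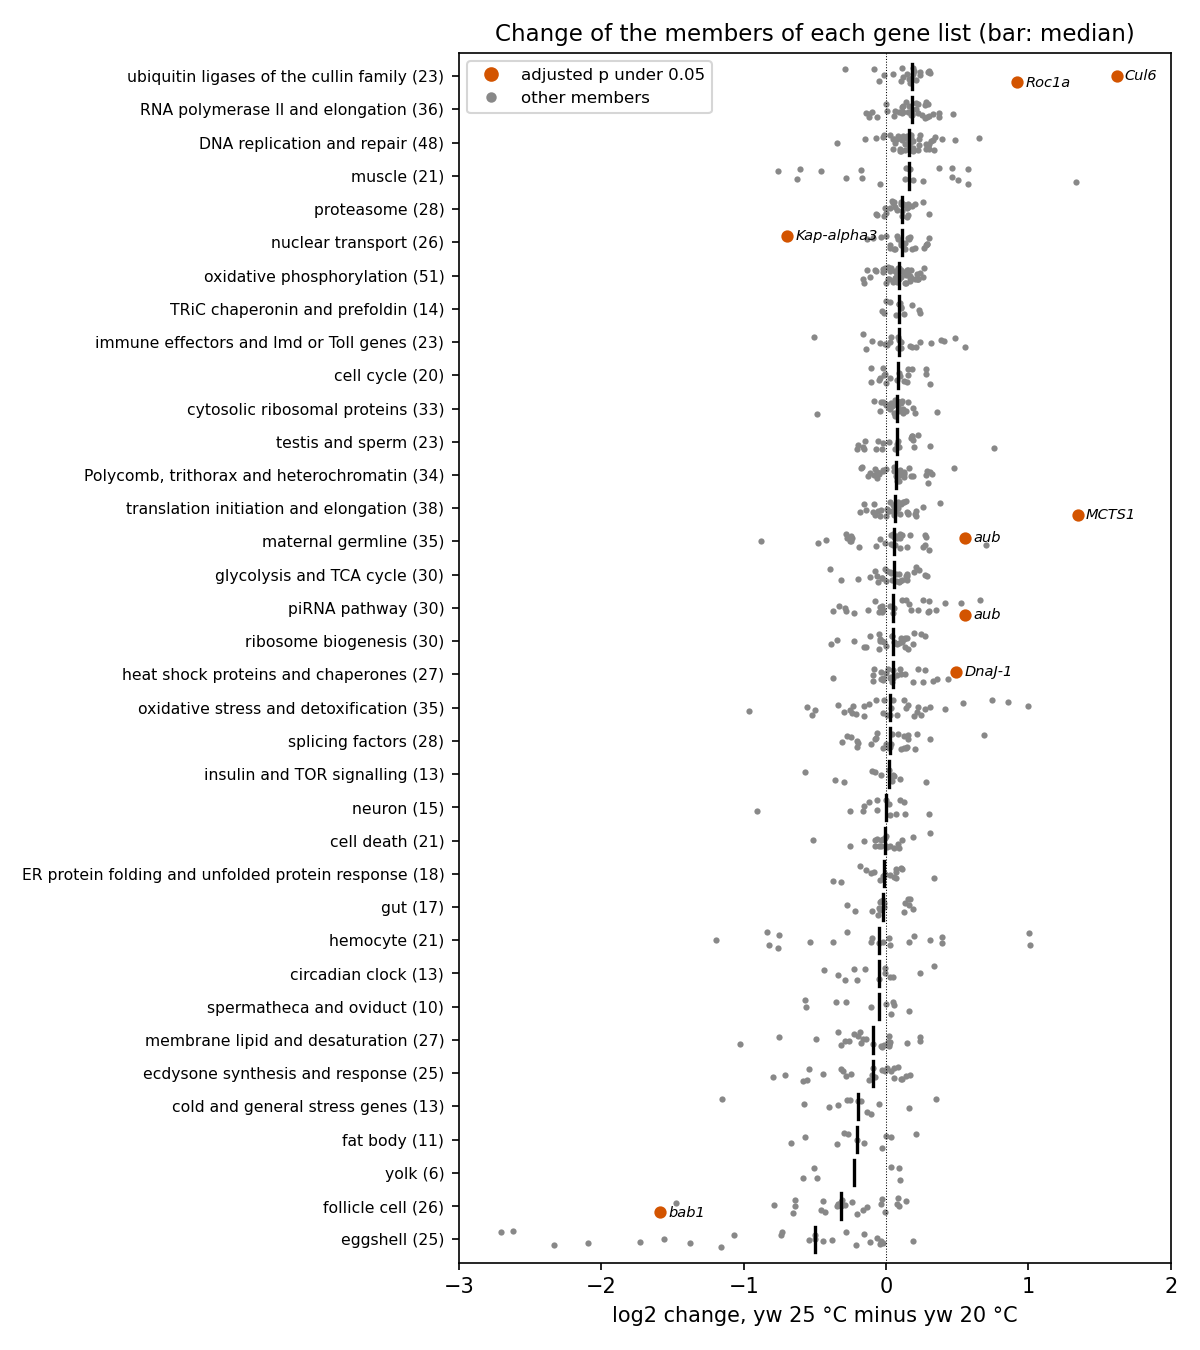
Log2 change between 25 °C and 20 °C (horizontal axis) of each measured gene of every list except the visible markers, 1 point per gene, with the number of genes in parentheses, called genes in orange with their names and a bar at each list's median. The medians run from 0.18 for cullin ligases to -0.50 for eggshell genes, and most lists hold no called gene.

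Nuclear transport had 1 call, Kap-alpha3, an importin alpha that carries proteins into the nucleus. It read 7.12, 7.51 and 7.61 at 25 °C, against 8.31, 7.98 and 8.03 at 20 °C, a 1.62-fold fall (-0.69 ± 0.13 SE, adjusted p = 0.0287). Without replicate 1 of both temperatures it was -0.44 and did not pass (adjusted p = 0.0527). Of the list's 26 genes 21 were positive, and the median was 0.11.

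Rab27, which encodes a small GTPase of vesicle secretion, read 5.82, 6.26 and 6.58 at 25 °C, against 8.30, 8.22 and 7.91 at 20 °C, a 3.79-fold fall (-1.92 ± 0.23 SE, adjusted p = 0.00139). Hayan, a serine protease of the melanisation cascade, read 4.29, 4.68 and 4.67 at 25 °C, against 5.55, 5.81 and 5.70 at 20 °C. It fell 2.20-fold (-1.14 ± 0.18, adjusted p = 0.00825), although none of the 23 measured immune genes on the list, which did not include it, was called. The protein kinase gene Dyrk3, on chromosome 4, fell 1.91-fold, and the inositol trisphosphate kinase IP3K1 fell 1.64-fold. The gene dao read 4.44, 4.63 and 4.51 at 25 °C, against 7.73, 6.397 and 6.69 at 20 °C, a 5.31-fold fall (-2.41 ± 0.38, adjusted p = 0.00825). Its 3 values at 25 °C lay close together and its values at 20 °C were spread over more than 1 log2 unit. The other named falls were CG42565, CG32187, CG2812, CG10208, CG13616, HisT and CG32536, between -1.42 and -0.91, and CG13616 lay under the median of every array at 25 °C.

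Among the other named rises, Mical encodes a flavoprotein monooxygenase that takes actin filaments apart. It read 9.15, 9.72 and 9.56 at 25 °C, against 8.72, 8.38 and 8.70 at 20 °C, a 1.83-fold rise (0.87 ± 0.16 SE, adjusted p = 0.0274). A further probe set for Mical gave -0.23, so the rise was seen with 1 of the gene's probe sets. The gene dpr6, which encodes an immunoglobulin-domain protein of neuronal surfaces, rose 2.09-fold on the probe set used. A further set gave 0.46, with all values at 25 °C above those at 20 °C but no call (adjusted p = 0.3), and the last, with levels of 3.32 at 25 °C and 3.33 at 20 °C, was under the array medians, as was the other set of CG42565 (3.42 at 25 °C and 3.37 at 20 °C). The gene jtb read 6.72, 6.93 and 6.62 at 25 °C, against 5.67, 5.38 and 5.48 at 20 °C, a 2.37-fold rise (1.25 ± 0.24, adjusted p = 0.0388). The remaining named rises were CG33062 (1.62), CG12520 (1.49), CG7800 (1.39), CG4496 (1.20), CG7565 (1.07) and CG1774 (0.88). In CG33062 and CG12520 replicate 1 at 25 °C was below the other two of its group, and the arrays at 20 °C lay close together.

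The remaining called genes were smaller changes, and they are named here after their values were seen. Those that rose were CkIIalpha-i3, the inositol phosphatase gene 5PtaseI, CG7102, Archease, the Polycomb partner RYBP, the peptide hormone gene ETH, rasp and CG6878, with changes between 0.49 and 0.87. Those that fell were the DYRK-family kinase mnb, tamo, the cytoskeletal linker pod1, the choline transporter-like gene Ctl2 and Bem46, with changes between -0.67 and -0.50. For 5PtaseI another probe set gave -0.40, and for mnb 3 others gave 0.01, 0.21 and 0.03. Of the unnamed called probe sets 1 rose, by 1.03, and the others fell, by -2.11 and -0.81.

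Called genes lay on all the major chromosome arms. There were 12 on 3L (0.512% of its 2344 measured genes), 12 on 3R (0.403%), 7 on 2R (0.288%), 6 on 2L (0.272%), 7 on X (0.374%) and 1 on chromosome 4, against 0.376% of all genes. Of 90 measured genes next to a called gene, none was called and 48 had a change of the same sign as the called neighbour, so no called gene stood beside another called gene.

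Several lists had no called member and a median between -0.09 and 0.09. Over all genes the median was 0.02, 56.5% were positive and 0.376% were called. These were oxidative phosphorylation (51 genes, 42 positive, median 0.09), glycolysis and the TCA cycle (30, 20 positive, 0.05), splicing factors (28, 16 positive, 0.03), cell cycle (20, 12 positive, 0.08) and Polycomb, trithorax and heterochromatin (34, 22 positive, 0.07). The others were insulin and TOR signalling (13, 7 positive, 0.02), cell death (21, 10 positive, near 0), circadian clock (13, 4 positive, -0.05) and membrane lipids and desaturation (27, 10 positive, -0.09). Within the chromatin list, Su(var)3-7, a heterochromatin protein that binds HP1, had the smallest p and read 6.39, 6.62 and 6.76 at 25 °C, against 5.93, 6.15 and 6.25 at 20 °C (0.48 ± 0.14 SE, adjusted p = 0.246). For ecdysone synthesis and response, 9 of 25 genes were positive and the median was -0.09; the list averaged 6.85, 6.59 and 6.73 at 25 °C, against 6.95, 6.88 and 6.88 at 20 °C. On it nvd, which encodes the first enzyme of ecdysone synthesis, read 4.73, 4.82 and 5.03 at 25 °C, against 5.90, 5.33 and 5.48 at 20 °C (-0.71 ± 0.19, adjusted p = 0.178). The cold and general stress list had 2 of 13 genes positive and a median of -0.19, with array means of 5.82, 5.30 and 5.79 at 25 °C, against 5.85, 5.91 and 5.87 at 20 °C. Of 37 lists, 3 had array means that did not overlap between the temperatures, namely these 2 and the chaperones. Of all genes 12.1% did not overlap. The exact permutation p of each of these 3 lists was 0.1, the smallest that 3 against 3 arrays allow. Of the lists for other tissues, fat body had 2 of 11 genes positive and a median of -0.20, hemocyte 9 of 21 and -0.05, muscle 13 of 21 and 0.16, and the spermatheca and oviduct list 5 of 10 and -0.05. Without replicate 1 of both temperatures the muscle median was -0.71, with 4 of 21 positive and 2 members called lower, against 1.34% of all genes. Replicate 1 at 25 °C was left out for its high muscle level, so a lower muscle median follows from that choice and is no evidence of a fall. Without the same arrays the hemocyte median was -0.18, with 1 member called lower, and the fat body median was -0.38.

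The same change of temperature was measured in Marcal1del/del, a strain homozygous for a deletion in Marcal1, with 3 ovary samples at 25 °C and 3 at 20 °C that share no array with the yw samples. Deviations from the group mean of equally numbered yw and Marcal1del/del arrays correlated across probe sets with r = 0.47, 0.07 and 0.30 at 25 °C and 0.16, 0.35 and -0.13 at 20 °C, against -0.45 to 0.39 for unequal numbers, so it cannot be told whether the 2 genotypes' samples were fully separate. There 38 probe sets were called (0.202% of those tested), 25 higher and 13 lower. All 48 probe sets called in yw had the same sign in Marcal1del/del, against 60.4% of all probe sets, and for 40 of the 48 the Marcal1del/del arrays of the 2 temperatures did not overlap and went the same way, against 10.1% of all probe sets in either direction. Both genotypes called 18 probe sets in the same direction, 12 higher and 6 lower, which is 37.5% of the yw calls and 47.4% of the Marcal1del/del calls. The 48 were chosen for their change in yw, and 41 of them had a smaller change in Marcal1del/del. Their median absolute change was 1.00 in yw, against a median of 0.63 in the yw direction in Marcal1del/del.

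Some genes moved by nearly the same amount in both genotypes. CG10581 changed by -2.92 in yw and -3.01 in Marcal1del/del, CG7381 by 2.35 and 2.29, MCTS1 by 1.35 and 1.41, Roc1a by 0.92 and 0.92, and aub by 0.55 and 0.62, and these passed in both. Others were larger in yw without a difference that passed: the values for GstD9 were 1.65 in yw and 0.91 in Marcal1del/del, those for Cul6 1.62 and 0.91, those for Hayan -1.14 and -0.15 and those for bab1 -1.58 and -0.09, and none of the 4 passed in Marcal1del/del. There bab1 averaged 3.30 at 25 °C and 3.39 at 20 °C, under the median of every array, so a fall could hardly have been seen with its probe set. The difference between the genotypes did not pass for any of the 48 (adjusted p of 1 for each in limma). The unadjusted p was under 0.05 for 15 of the 48, against 295 of all 18769 probe sets. The 48 were chosen for their change in yw, which is part of this difference, so that share is raised by the choice. The Hayan difference was -0.99 ± 0.25 SE and did not pass after adjustment over 18769 probe sets. The 3 arrays per group limit the precision of these differences. The fit also took the samples of the 2 genotypes as separate. With replicate number as a block within each temperature, chosen after seeing the data, 577 probe sets had an unadjusted p under 0.05. None of the 48 passed after adjustment there either. The counts of 295 and 577 are below the 938 expected by chance, so a difference that did not pass does not show equal changes.

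Over all 18769 probe sets the temperature change differed between the genotypes in 2 (0.0107%), with 295 at an unadjusted p under 0.05, where 938 would be expected by chance. The first was otk2, a receptor-like protein of Wnt signalling, which read 4.51, 4.71 and 4.51 in yw at 25 °C and 4.48, 4.69 and 4.59 in yw at 20 °C. In Marcal1del/del it read 7.63, 7.71 and 7.38 at 25 °C and 5.59, 5.46 and 5.37 at 20 °C. The log2 change was -0.01 in yw and 2.10 in Marcal1del/del. The second was Pms2, a DNA mismatch repair gene, which averaged 8.54 in yw at 25 °C and 8.38 in yw at 20 °C, against 7.92 in Marcal1del/del at 25 °C and 5.93 in Marcal1del/del at 20 °C. For both genes the temperature change was seen in the Marcal1del/del arrays and the yw groups overlapped.

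**Figure D5:**
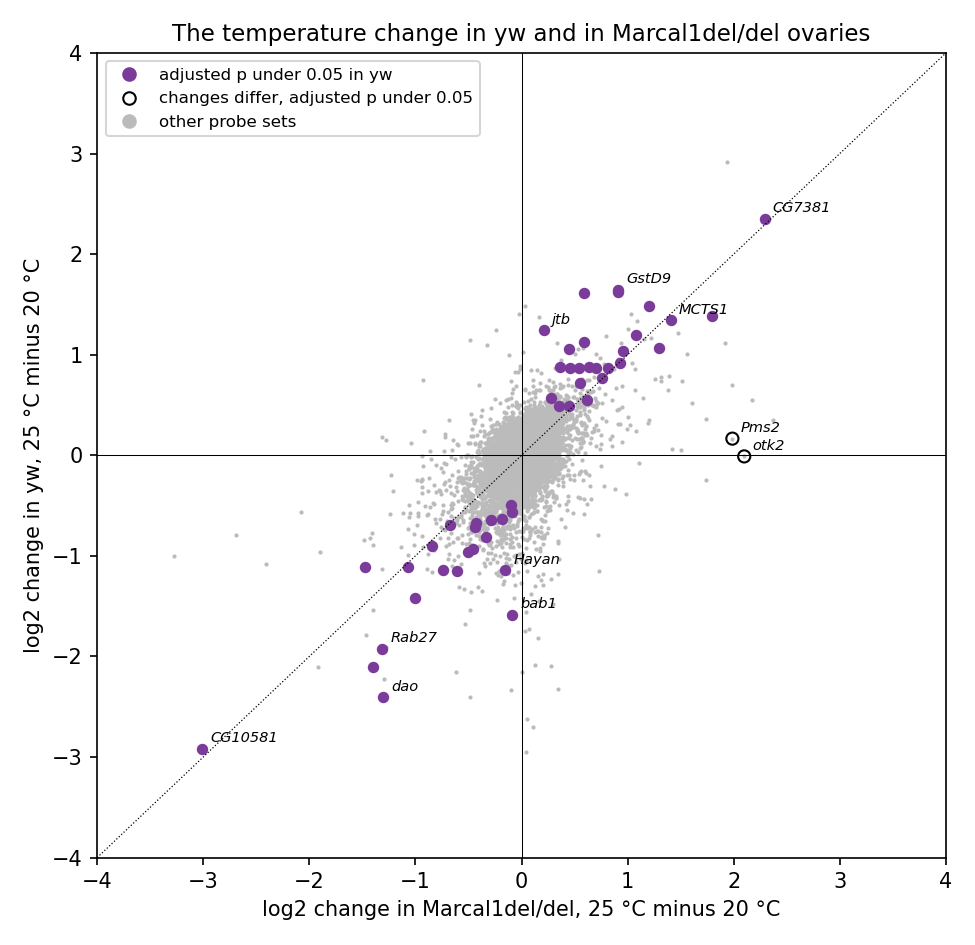
Log2 change between 25 °C and 20 °C in yw (vertical axis) against that in Marcal1del/del (horizontal axis), 1 point per probe set, with probe sets called in yw in purple, the 2 whose changes differ as open circles and equal change as the dotted line. CG7381 (2.35 and 2.29) and CG10581 (-2.92 and -3.01) lie near the line, and otk2 lies at -0.01 in yw and 2.10 in Marcal1del/del.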

How the data were processed

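Ovary RNA of 18 samples was measured on Affymetrix Drosophila Genome 2.0 arrays, and the 6 yw samples are described here. Per the submitters' processing notes, the deposited log2 values were made with RMA, which adjusts the background, normalizes across arrays and summarises probes, so a shift shared by most transcripts could not appear; the build and annotation used were not stated there. The table held 18952 probe sets, of which 183 controls were set aside. The platform annotation, with symbols updated against NCBI's Drosophila annotation, named 1 gene for 13647 probe sets, several for 402 and none for 4720, unnamed here. A gene was represented by its probe set with the highest mean over 18 arrays.

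limma 3.58.1 (R 4.3.3) was fitted to all 18 arrays with 6 groups (residual degrees of freedom 12, prior 3.845), and 2-sided p-values were adjusted by Benjamini-Hochberg over 18769 probe sets and called under 0.05. The number of arrays limits the precision. The method was tested on simulated data. Named were the 15 largest called rises and falls without overlap, up to 4 called members of each of 37 lists (2 with the smallest p where none was called), Marcal1 and y, and called differences between genotypes. The comparison and lists were chosen with earlier results of these data known. Of 1153 list entries 897 were measured. Equally numbered yw samples at 25 and 20 °C did not deviate together (correlations -0.29, -0.24 and -0.02), so they were not paired.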

Additional observations from a re-analysis of the deposited data

Results flagged for a closer look

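For 2 genes the temperature change differed between yw and Marcal1del/del by a test of the difference itself (limma, Benjamini-Hochberg over 18769 probe sets). The change of otk2 in yw minus that in Marcal1del/del was -2.11 ± 0.15 SE (adjusted p = 2.6e-06), and all 3 Marcal1del/del arrays at 25 °C were above all 3 at 20 °C, while the yw arrays overlapped. For Pms2 the difference was -1.82 ± 0.20 (adjusted p = 0.00103), with the same arrangement of the arrays. Both passed in each alternative listed in advance that was fitted to both genotypes. With replicate number as a block within each temperature, chosen after seeing the data, otk2 passed (adjusted p = 0.0106) and Pms2 did not (adjusted p = 0.0553).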

How the results depend on the processing

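All 45 called genes kept the sign of their change in each of up to 16 alternatives. Their groups did not overlap, so leaving out or weighting yw arrays could not change a sign, and the kept signs are no evidence of stability. Of these genes, 17 stayed called in each fit that left out 1 yw array, and none stayed called in all 16. The main count of 48 (26 higher, 22 lower) ranged from 23 to 146 when 1 yw array was left out (11 to 73 higher, 10 to 73 lower): 146 without replicate 1 at 25 °C, 24 and 25 without its replicates 2 and 3, and 49, 23 and 27 without replicates 1, 2 and 3 at 20 °C. It was 633 (391 and 242) without replicate 1 of both temperatures, 31 (17 and 14) with the 12 yw and Marcal1del/del arrays, and 2 (1 and 1) with the 6 yw arrays alone. With array weights, whose fit did not converge, it was 5109 (2905 and 2204). An equal-variance test per probe set called 0 (1094 at an unadjusted p under 0.05). With replicate number as a block the count was 39 (20 and 19), and with that block and the 6 yw arrays alone 0 (0 and 0) in limma. A filter on dim probe sets gave 65 (38 and 27), quantile normalization 61, median centring 41 and trended robust variances 57. The Marcal1del/del count of 38 was 10 to 32 with 1 array left out, 25 with 12 arrays and 157 with array weights. The count of differing changes, 2, was 5 without replicate 1 of both yw temperatures, 12 with array weights and 1 with a replicate block within each temperature on 12 arrays, an alternative chosen after seeing the data. Other probe sets of called genes had the opposite sign for 5PtaseI (-0.40), Mical (-0.23) and mnb (0.21), and lay within 1 SE of 0 for CG42565 (0.051), dpr6 (-0.0072, beside a set at 0.46) and mnb (0.0074 and 0.0341). The cause of these differences was not tested.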

Other observations

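Fold changes alone picked out other transcripts than the test did. Past 2-fold were 106 genes, of which 22 were called and 84 were not. Of those 84, 68 were lower and 16 higher at 25 °C, and 54 had overlapping groups. The largest change among them after CG1077 was that of CG42857, named here after its values were seen: it read 3.59, 8.24 and 8.17 at 25 °C, against 4.37, 3.35 and 3.52 at 20 °C, so that replicate 1 at 25 °C was level with the arrays at 20 °C (2.92 ± 0.87 SE, adjusted p = 0.278). CG1077 read 3.75, 6.94 and 7.85 at 25 °C, against 6.66, 10.82 and 9.91 at 20 °C (-2.95 ± 1.06, adjusted p = 0.468), with replicate 1 lowest at each temperature. The fatty acid synthase gene FASN3, also named after its values were seen, read 5.33, 4.28 and 4.90 at 25 °C, against 6.94, 7.19 and 6.70 at 20 °C. Its groups did not overlap and the log2 change was -2.11 ± 0.45 in yw (adjusted p = 0.0744) and -1.91 in Marcal1del/del.

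For the 45 called genes, replicate 1 was the array of its group nearest the other temperature in 25 cases at 25 °C, against 7 for replicate 2 and 13 for replicate 3. At 20 °C these counts were 19, 8 and 18.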
